A study of Mus musculus with 2 samples.

Results

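Kcnq1ot1 and the genes around it on distal chromosome 7 form an imprinted domain, described here in heart nuclei of adult and aged female mice. The 8 genes, Kcnq1, Kcnq1ot1, Cdkn1c, Phlda2, Slc22a18, Nap1l4, Cd81 and Tssc4, were chosen by their position and by allelic values of these libraries that were already known, so their own values are a description. Of the 8, 7 were among the 24015 genes listed for the adult and the 22691 listed for the aged library, and Phlda2 was listed in neither. At least 20 SNP-overlapping reads were found for 6 of them in the adult heart and 5 in the aged library. The hearts came from F1 hybrids of a C57BL/6J (BL6) mother and a CAST/EiJ (CAST) father, 1 mouse of 9 weeks (adult) and 1 of 78 weeks (aged). The labels give C57BL/6JxCAST/EiJ as the genotype but name the Xist-mutant mother's strain, ∆Xist-/+, in the breed field, whereas the methods describe wild-type hybrids. Nuclei were sorted from frozen hearts by a DNA dye and profiled by snRNA-seq with a 3′ kit, and the pool was limited to nuclei with an active BL6 X chromosome. As each age has a single library, the ages cannot be tested against each other, and every interval below covers counting error only.

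The domain is controlled by an imprinting centre in an intron of Kcnq1 that is methylated on the maternal chromosome. On the paternal chromosome this centre is free of methylation and serves as the promoter of Kcnq1ot1, a long noncoding RNA that runs antisense to Kcnq1 and is retained in the nucleus. Paternal Kcnq1ot1 is known for silencing Kcnq1, Cdkn1c, Phlda2 and Slc22a18 in cis, in part through the H3K9 methyltransferase G9a and Polycomb complexes, while genes at the edges of the domain are imprinted mainly in the placenta. Silencing of Kcnq1 itself is known to be lost in the heart during development. In this cross the BL6 allele is maternal and the CAST allele paternal. The allelic ratio is the BL6 share of the SNP-overlapping reads of a gene, so an allelic ratio of 1 is purely maternal and an allelic ratio of 0 purely paternal. The reverse cross was not analysed here, and an effect of the parent cannot be told apart from an effect of the strain.

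The sequence around the Kcnq1ot1 start is shown because this is the site from which the paternal transcript begins. It runs from 250 bases before to 50 bases after the RefSeq start, chr7:143296498-143296797 of GRCm38.p6 on the minus strand, inside an intron of Kcnq1. Capitals mark the CCAAT motif, searched on both strands.
Kcnq1ot1 promoter: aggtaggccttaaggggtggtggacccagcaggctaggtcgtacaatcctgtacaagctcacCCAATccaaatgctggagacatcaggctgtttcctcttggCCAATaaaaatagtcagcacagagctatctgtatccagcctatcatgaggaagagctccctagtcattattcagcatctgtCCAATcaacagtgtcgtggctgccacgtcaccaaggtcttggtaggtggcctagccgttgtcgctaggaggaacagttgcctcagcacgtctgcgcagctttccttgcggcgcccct
It held 3 copies of CCAAT in transcript orientation and 0 of its reverse complement. Of 32851 RefSeq promoters of this length, 37.4% held the motif on either strand and 3.37% held it at least 3 times. The window held 9 CpG dinucleotides, against a median of 7 over all promoters, 26 at Phlda2, 23 at Cd81, 23 at Tssc4 and 2 at Slc22a18. Kcnq1, Cdkn1c and Nap1l4 had no matching entry.

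Kcnq1ot1 (ENSMUSG00000101609.2; GRCm38 chr7:143213111-143296547, minus strand) was the gene of the domain with the most paternal reads relative to maternal ones. In the adult library it had 960 BL6 against 1508 CAST reads, an allelic ratio of 0.389 (exact Clopper-Pearson 95% interval 0.370 to 0.409). In the aged library it had 141 BL6 against 730 CAST reads, an allelic ratio of 0.162 (0.138 to 0.188). The CAST allele thus carried 61.1% of the reads in the adult heart and 83.8% in the aged library. At 78 weeks the allelic ratio was lower by 0.227 (Newcombe 95% interval 0.195 to 0.257), and the intervals of the libraries were separate. As counting is not stated to use strand, these counts may hold reads of Kcnq1, which spans the same stretch.

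The lower allelic ratio of Kcnq1ot1 went with fewer BL6 reads more than with a different number of CAST reads. Scaled to 1000000 SNP-overlapping reads of all listed genes (reads per 1000000, RPM), BL6 reads of Kcnq1ot1 were at 98.5 RPM in the adult heart and 24.3 RPM in the aged library, an aged to adult ratio of 0.247 (exact 95% interval 0.205 to 0.295). CAST reads were at 154.7 and 125.7 RPM, a ratio of 0.813 (0.743 to 0.888). Both alleles together were at 253.2 and 150.0 RPM, a ratio of 0.593 (0.548 to 0.640). These ratios are to be read against the median of 1.16 (log2 0.22) over 12736 genes with at least 20 reads in both libraries. On this scale an average gene thus lay slightly above 1.

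Kcnq1 (ENSMUSG00000009545.14; chr7:143106742-143427050, plus strand) encodes the pore-forming subunit of the slow delayed rectifier potassium channel, which repolarises cardiomyocytes. Over the whole locus it had 2616 BL6 against 2755 CAST reads in the adult library, an allelic ratio of 0.487 (0.474 to 0.501). In the aged library it had 585 BL6 against 965 CAST reads, an allelic ratio of 0.377 (0.353 to 0.402). The value for the whole locus is not that of the Kcnq1 transcript. Kcnq1ot1 lies wholly inside Kcnq1 and takes up 26.1% of its length, counting is not stated to use strand, and reads in the shared stretch entered both loci. Across the files, in none of 1280 pairs of a locus inside another did the inner locus have more reads of an allele than its host. Kcnq1ot1 reads were therefore subtracted from those of Kcnq1.

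Outside Kcnq1ot1, the allelic ratio of Kcnq1 was above 0.5 in both libraries, more so in the aged one. The adult library held 1656 BL6 against 1247 CAST reads there, an allelic ratio of 0.570 (0.552 to 0.589). This lay between the quartiles of autosomal genes in that library, 0.4735 and 0.604, with a median of 0.536. The aged library held 444 BL6 against 235 CAST reads, an allelic ratio of 0.654 (0.617 to 0.690), above the upper quartile of autosomal genes, 0.613. Adult minus aged allelic ratio was -0.0835 (-0.123 to -0.0428), the opposite direction to the whole locus and to Kcnq1ot1, and the intervals were again separate. Both alleles were lower in the aged library, and the paternal allele more so. The BL6 allele went from 169.9 to 76.5 RPM, a ratio of 0.450 (0.405 to 0.5), and the CAST allele from 127.9 to 40.5 RPM, a ratio of 0.316 (0.274 to 0.364). The sum of both went from 297.8 to 117.0 RPM, a ratio of 0.393 (0.361 to 0.427), below that of the Kcnq1ot1 stretch.

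**Figure D1:**
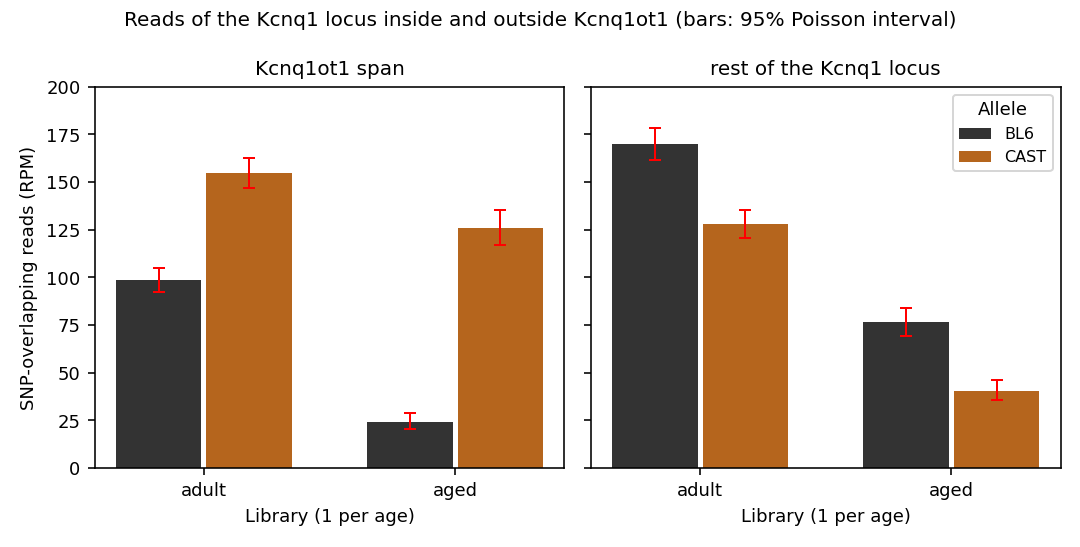
SNP-overlapping reads per 1000000 (RPM, y axis) of the BL6 (maternal, black) and CAST (paternal, brown) allele in the adult heart and the aged library, inside the Kcnq1ot1 stretch (left) and in the rest of the Kcnq1 locus (right), with exact Poisson 95% intervals. Inside Kcnq1ot1 the BL6 bar drops from 98.5 to 24.3 RPM while the CAST bar goes from 154.7 to 125.7 RPM, and outside it both bars are lower in the aged library with BL6 above CAST at both ages.

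The paternal reads of the Kcnq1 locus were thus more concentrated in the Kcnq1ot1 stretch in the aged than in the adult library. This stretch held 54.7% of the CAST reads of the locus in the adult heart and 75.7% in the aged library, but 36.7% and 24.1% of its BL6 reads. The ratio of CAST to BL6 reads was 1.57 and 5.18 inside the stretch and 0.753 and 0.529 outside it. Per kb of locus, CAST reads inside the stretch were at 1.85 RPM in the adult heart and 1.51 RPM in the aged library, against 0.540 and 0.171 RPM per kb outside. BL6 reads were at 1.18 and 0.291 RPM per kb inside and at 0.717 and 0.323 RPM per kb outside, so that in the aged library the BL6 values of both stretches had overlapping Poisson intervals. The number of SNPs per kb was not counted, which limits the comparison of stretches but not that of ages. Whether BL6 reads inside the stretch came from Kcnq1 or from Kcnq1ot1 cannot be told apart without strand, and the annotation of GENCODE carries Kcnq1ot1 9.65 kb further than the files, where its reads count as Kcnq1.

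The maternally expressed targets of Kcnq1ot1 were barely covered. Cdkn1c (chr7:143458339-143461073, minus strand), which encodes the cyclin-dependent kinase inhibitor p57, starts 164.5 kb from the Kcnq1ot1 start. It had 17 BL6 against 4 CAST reads in the adult library, an allelic ratio of 0.810 (0.581 to 0.946), and 7 BL6 against 9 CAST reads in the aged library, an allelic ratio of 0.438 (0.198 to 0.701). The exact intervals overlapped while the Newcombe interval of the difference of 0.372 ran from 0.0604 to 0.608, and the aged library was below the minimum of 20 reads. Its level was 2.15 RPM in the adult heart and 2.76 RPM in the aged library, a ratio of 1.28 (0.624 to 2.57). Slc22a18 (chr7:143473726-143499334, plus strand), a transporter-like membrane protein, had 2 BL6 against 0 CAST reads in the adult heart and 3 BL6 against 1 CAST reads in the aged library, too few to give an allele. Phlda2, a regulator of placental growth, was not listed.

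The flanking genes Nap1l4, Cd81 and Tssc4 were read from both alleles at both ages. Nap1l4 (chr7:143513579-143549196, minus strand), a histone chaperone gene that starts 252.6 kb from the Kcnq1ot1 start, had 412 BL6 against 332 CAST reads in the adult library, an allelic ratio of 0.554 (0.517 to 0.590). In the aged library it had 263 BL6 against 253 CAST reads, an allelic ratio of 0.510 (0.466 to 0.554), an interval that overlapped the adult one. Its level was 76.3 RPM in the adult heart and 88.9 RPM in the aged library, a ratio of 1.16 (1.04 to 1.305) that is close to the median of all genes and comes to 0.999 when scaled by that median.

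Cd81 (chr7:143052750-143067930, plus strand), a tetraspanin gene of the cell surface, had 328 BL6 against 266 CAST reads in the adult library, an allelic ratio of 0.552 (0.511 to 0.593). In the aged library it had 216 BL6 against 251 CAST reads, an allelic ratio of 0.463 (0.417 to 0.509), separate from the adult interval by a narrow margin. The difference in allelic ratio was 0.0897 (0.0291 to 0.149). Its CAST reads were 1.58 (1.33 to 1.89) times and its BL6 reads 1.11 (0.927 to 1.32) times those of the adult library on the RPM scale. The locus R74862 overlaps 937 bases of Cd81 with 57 adult and 63 aged reads, which may be shared.

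Tssc4 (chr7:143068092-143071093, plus strand), which encodes a factor for assembly of the spliceosome, had 29 BL6 against 29 CAST reads in the adult library, an allelic ratio of 0.5 (0.366 to 0.634). In the aged library it had 36 BL6 against 49 CAST reads, an allelic ratio of 0.424 (0.317 to 0.536), overlapping the adult interval. Its level was 5.95 RPM in the adult heart and 14.6 RPM in the aged library, a ratio of 2.46 (1.74 to 3.50).

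The order of the levels per length differed between the ages. In the adult library Cd81 came out at 4.01 RPM per kb, Kcnq1ot1 at 3.03, Nap1l4 at 2.14, Tssc4 at 1.98, Kcnq1 outside Kcnq1ot1 at 1.26, Cdkn1c at 0.788 and Slc22a18 at 0.00801. The Poisson intervals of Nap1l4 and Tssc4 overlapped, and Cdkn1c ended just below Kcnq1 outside Kcnq1ot1. In the aged library Cd81 was at 5.30 and Tssc4 at 4.88 RPM per kb with overlapping intervals, followed by Nap1l4 at 2.50, Kcnq1ot1 at 1.80, Cdkn1c at 1.01, Kcnq1 outside Kcnq1ot1 at 0.494 and Slc22a18 at 0.0269. The intervals of the remaining neighbours in this order were separate. These levels count only reads over SNPs, and the number of SNPs per kb of each locus was not counted. A 3′ kit also reads long genes mainly in introns and near their ends. The levels therefore order loci only roughly, and separate intervals do not make this an order of expression.

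Counted against all autosomal genes, the genes of the domain stood as follows, and since they were chosen from these values the counts are a description. Allelic ratios at 0.7 or higher were seen for 1 of 6 genes in the adult library, Cdkn1c, and 0 of 5 in the aged library, where 9.80% and 10.4% of autosomal genes with at least 20 reads had such an allelic ratio. Allelic ratios at 0.3 or lower were seen for 0 of 6 genes in the adult heart and for Kcnq1ot1, 1 of 5, in the aged library, with 3.97% and 4.37% of autosomal genes. The interval lay wholly below 0.5 for Kcnq1ot1 in the adult library and for Kcnq1ot1 and Kcnq1 in the aged library, as it did for 12.2% and 13.5% of autosomal genes. The interval lay wholly above 0.5 for Cdkn1c, Nap1l4 and Cd81 in the adult heart and for 0 genes in the aged library, against 35.2% and 34.1%. Kcnq1 is counted here as listed, with every read of Kcnq1ot1. Outside Kcnq1ot1 its interval lay wholly above 0.5 in the adult (0.552 to 0.589) and the aged library (0.617 to 0.690). The median allelic ratio of autosomal genes was 0.536 in the adult heart and 0.537 in the aged library, which places the middle of the genome on the BL6 side of 0.5.

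Between the ages, the intervals were separate for 3 of 5 genes, Kcnq1ot1, Kcnq1 and Cd81, and for 11.8% of 12390 autosomal genes. In all 3 the allelic ratio was lower at 78 weeks, as it was in 5.44% of autosomal genes, and in 0 it was higher, against 6.37%. Kcnq1 as listed contains every read of Kcnq1ot1 and is not a separate observation. Among 2389 autosomal genes with at least 500 reads in both libraries, 12.4% were lower and 14.8% higher with separate intervals, and of Kcnq1ot1, Kcnq1 and Nap1l4, which have this depth, the former pair was lower. An allelic ratio lower by 0.2 or more was found for 2 of these genes (0.0837%), Kcnq1ot1 and Zfp945 on chromosome 17, named after its values were seen, whose allelic ratio was 0.563 in the adult heart and 0.330 in the aged library.

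For reads of both alleles, an aged to adult ratio of 1/1.5 or lower was found for Kcnq1ot1 and Kcnq1, 2 of 5 genes, and 11.8% of all genes. A ratio of 1.5 or higher was found for Tssc4 alone, against 28.0% of all genes. By allele, the BL6 reads of Kcnq1ot1 and Kcnq1 were past the lower limit (11.9% of all genes) and those of Tssc4 past the upper (28.1%). The CAST reads of Kcnq1 were past the lower limit (12.1%), those of Kcnq1ot1 were not, and those of Cd81 and Tssc4 were past the upper (27.8%).

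**Figure D2:**
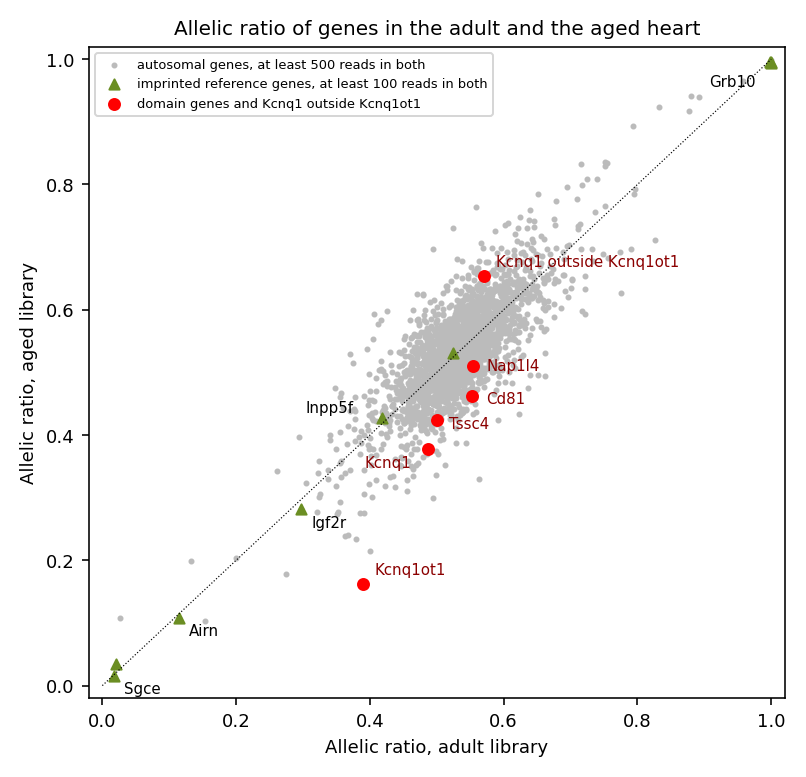
Allelic ratio in the adult (x axis) against allelic ratio in the aged library (y axis) for autosomal genes with at least 500 reads in both libraries (grey), imprinted reference genes with at least 100 reads in both (green triangles) and genes of the domain with at least 20 reads in both, with Kcnq1 outside Kcnq1ot1 (red). Kcnq1ot1 sits at 0.389 and 0.162, below the dotted line of equal values, while Kcnq1 outside Kcnq1ot1 at 0.570 and 0.654 is above it and the imprinted genes lie close to it.

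Imprinted genes elsewhere in the genome show what a parental allele looks like in these libraries. Of 7 paternally expressed genes read at least 20 times in both, 5 had an allelic ratio of 0.3 or lower at both ages, and of 6 maternally expressed genes 4 had an allelic ratio of 0.7 or higher at both ages. None of these genes had separate intervals between the ages, and the median absolute difference in allelic ratio was 0.0140 for the paternal and 0.0051 for the maternal list. Sgce had an allelic ratio of 0.0171 in the adult heart and 0.0161 in the aged library. Airn, like Kcnq1ot1 a paternal antisense RNA that silences its neighbours, had 0.115 and 0.109. Grb10 had 0.998 and 0.995, and Meg3 1 and 0.995. Igf2r, maternally expressed in most tissues and overlapped by Airn, had 0.298 and 0.282, and Inpp5f, which has an imprinted isoform, had 0.417 and 0.427. The allelic ratio of the Kcnq1ot1 stretch in the aged library was thus closer to that of Airn than in the adult library, where its BL6 share was well above those of Airn and Sgce. Without strand, reads of this stretch may come from Kcnq1, so the comparison does not measure the imprinting of the Kcnq1ot1 RNA itself.

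The allelic ratio of other loci in and around the domain on chromosome 7 is given next. Of these 29 loci, 10 had at least 20 reads in both libraries. None of them had an allelic ratio of 0.3 or lower, with a range of 0.417 to 0.828 in the adult heart and 0.313 to 0.765 in the aged library. Only 3.97% and 4.37% of autosomal genes had such a value, so 10 loci cannot show how far a paternal excess reaches. In order of distance from the Kcnq1ot1 start, the 5 with at least 100 reads in both were Cars (303.5 kb), Osbpl5 (460.4 kb), Mrpl23 (763.8 kb), Lsp1 (835.7 kb) and Ctsd (908.7 kb). Cars, a cysteinyl-tRNA synthetase gene, had an allelic ratio of 0.417 in the adult heart and 0.604 in the aged library and was the only locus of the 10 with separate intervals. It moved toward the maternal allele, the opposite way to Kcnq1ot1. Osbpl5 had 0.545 and 0.565, Mrpl23 0.531 and 0.546, Lsp1 0.538 and 0.451, and Ctsd 0.537 and 0.563. Allelic ratios at 0.7 or higher were seen for 2 of the 10 loci in each library, against 9.80% and 10.4% of autosomal genes. They were Tnfrsf26 at both ages, R74862 in the adult heart and Shank2 in the aged library, named after their values were seen. Tnfrsf26 had an allelic ratio of 0.828 and 0.719 from 29 and 32 reads, R74862 of 0.702 and 0.635, and Shank2 of 0.667 and 0.765.

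**Figure D3:**
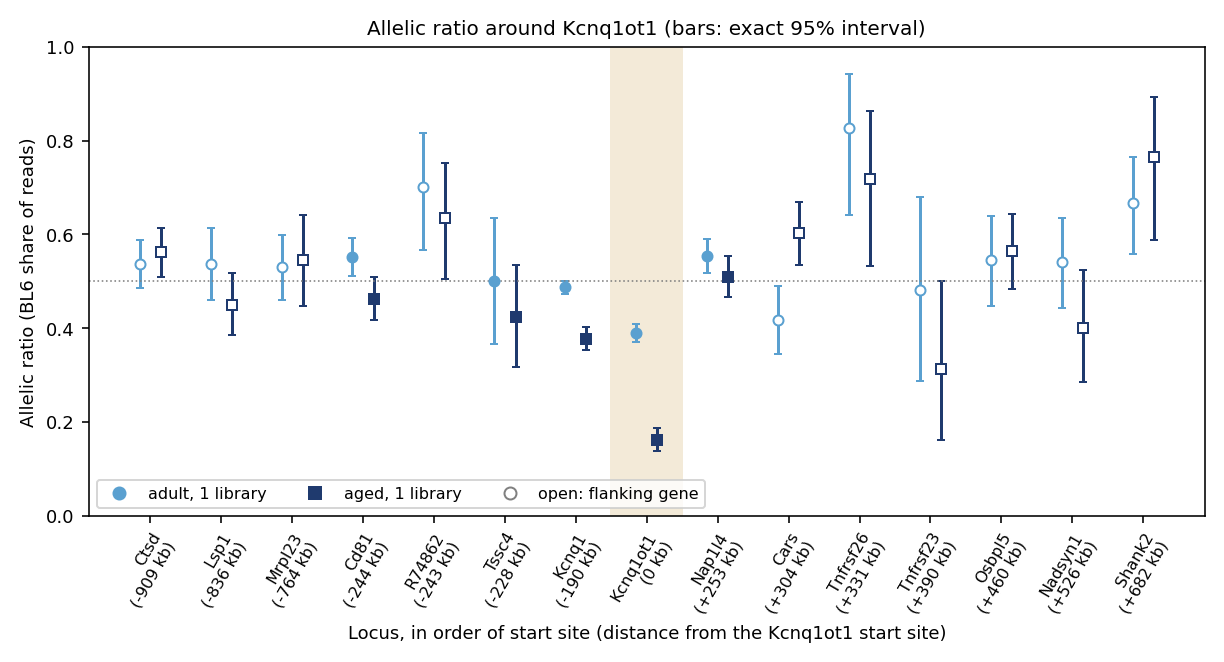
Allelic ratio (y axis) with exact 95% intervals of genes of the domain (filled) and flanking loci (open) with at least 20 reads in both libraries, in the order of their start sites, whose distance from the Kcnq1ot1 start in kb stands beneath each name (x axis, not to scale). Kcnq1ot1 in the aged library, at 0.162, is the lowest point, and its neighbours on either side lie between 0.313 and 0.828.

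The genes with the pair of allelic ratio values nearest to that of Kcnq1ot1, of 7067 autosomal genes with at least 100 reads in both libraries, were Gm21948, Prdm6, Nup62, Usp19 and Hnrnph3. Their distances over the 2 libraries ran from 0.0207 for Gm21948 to 0.0541 for Hnrnph3, and Gm21948 and Nup62 overlap each other on chromosome 7. Hnrnph3, with 1106 adult and 1224 aged reads, had an allelic ratio of 0.4 and 0.215. Those nearest to Kcnq1 as listed were Dtna, Syk, Pcmtd2, Bckdhb and Poc1b, at distances of 0.0016 to 0.00748.

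Other cardiac potassium channel genes were lower in the aged library together with Kcnq1. Of 12 named, 10 had at least 20 reads in both libraries. Their aged to adult ratio was below 1 for all 10, where the lower quartile of all genes was 0.8655. It was 1/1.5 or lower for 6, against 11.8% of all genes, with a median of 0.606 against 1.16 for all genes. Kcnj3, which encodes a subunit of the acetylcholine-gated channel, went from 3247 to 450.6 RPM, a ratio of 0.139 (0.133 to 0.144). Kcnd2 and Kcnd3, which encode subunits of the transient outward channel, had ratios of 0.303 (0.292 to 0.314) and 0.451 (0.413 to 0.492). Kcnq1 outside Kcnq1ot1, at 0.393, lay between these. The allelic ratio intervals were separate for 3 of the 10, Kcnj3 and Kcnd3 with a higher and Kcnip2 with a lower allelic ratio at 78 weeks, as they were for 11.8% of autosomal genes. Separate intervals were more frequent among autosomal genes with at least 500 reads, where 12.4% were lower and 14.8% higher. Kcne1, which encodes the auxiliary subunit of the Kcnq1 channel, had 8 adult and 4 aged reads.

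Marker genes of the cell types did not move together. The summed level of 6 cardiomyocyte markers was 28280 RPM in the adult heart and 26450 RPM in the aged library, a ratio of 0.935, which placed cardiomyocyte transcripts well above all others in both and matched the labelled organ. Within this list Ttn had a ratio of 0.580, Actc1 of 4.11, Myh6 of 1.15, Ryr2 of 1.15, Tnnt2 of 0.976 and Pln of 1.04. Summed fibroblast markers went from 612.9 to 948 RPM (1.55), endothelial from 391.9 to 813 RPM (2.07), mural from 175.7 to 427.2 RPM (2.43) and leukocyte markers from 188.5 to 293.5 RPM (1.56). Ratios reached 1.5 for 3 of 5 fibroblast, 5 of 6 endothelial, 4 of 5 mural and 2 of 5 leukocyte markers. These counts cover markers with at least 20 reads in both libraries, and 28.0% of all genes reached this ratio. Dcn, at 460.8 and 772.7 RPM, made up most of the fibroblast sum, while Col3a1 had a ratio of 0.6535 and Col1a2 of 0.888. Mural Abcc9 had a ratio of 0.853. All 6 named markers of each list were read, except that mural Kcnj8 was not listed. A list of 5 atrial genes, added after Kcnj3 was seen, went from 199.1 to 162.3 RPM (0.815), with Bmp10 at 29 adult and 1 aged reads. The paper reported a lower share of cardiomyocytes and a higher share of fibroblasts among all nuclei of its aged heart sample. The part of these lists in the values of the domain was not tested. In the pooled counts used here, which carry no cell types, fewer cells of a type and less RNA per cell cannot be told apart.

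**Figure D4:**
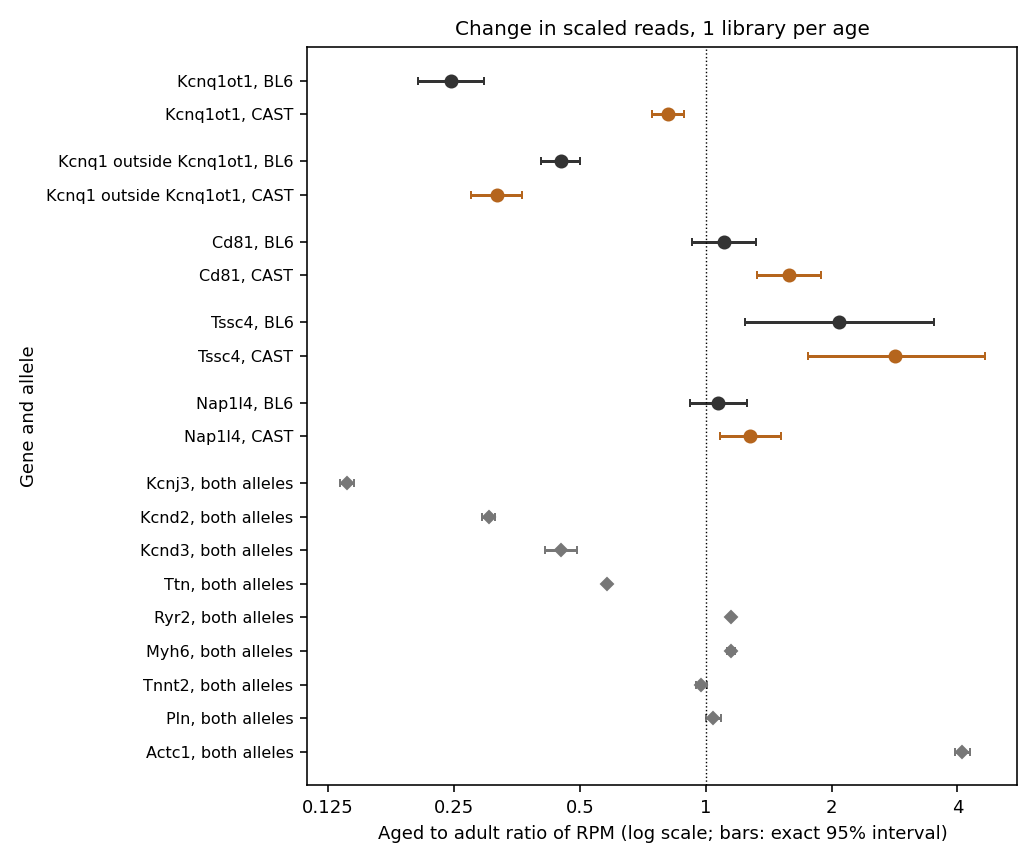
Aged to adult ratio of RPM (log x axis) with exact 95% intervals for the BL6 (black) and CAST (brown) reads of genes of the domain and for both alleles of potassium channel genes and cardiomyocyte markers (grey). BL6 reads of Kcnq1ot1 are at 0.247 and its CAST reads at 0.813, the order is the reverse for Kcnq1 outside Kcnq1ot1 (0.450 and 0.316), and Nap1l4 lies near the median of all genes, 1.16, so that its side of 1 depends on the scaling.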

How the data were processed

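The authors aligned 10x 3′ snRNA-seq reads of frozen hearts with Cell Ranger 7.1.0, used Seurat 5.1.0, and pooled nuclei with an active BL6 X chromosome per age for Allelome.PRO2 with RefSeq loci of GRCm38. For each locus and allele the authors deposited counts of reads over SNPs, the allelic ratio as a fraction rounded to 2 decimals, and a score that was not used. They corrected the gene expression matrices for ambient RNA with CellBender and removed doublets from them with DoubletFinder, whereas the allele pools were split from the Cell Ranger alignments, to which a matrix correction does not apply. Whether the pools hold only nuclei that passed the doublet filter, and whether counting used strand or collapsed duplicate reads, is not given in the sources used here. The adult library held 9747535 and the aged library 5805807 SNP-overlapping reads.

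The allelic ratio was recomputed from the counts, with at least 20 reads for any gene counted. Reads were scaled per 1000000 SNP-overlapping reads (RPM). Intervals are 95% (Clopper-Pearson, Newcombe, Poisson, and conditional exact for ratios; Python 3.11.15, SciPy 1.17.1) and treat reads as independent. The functions were tested on simulated reads with counting error only, so that test does not cover differences between mice. The labels place 1 library in each age. Members, gene lists and named genes were chosen with earlier results of these data known. Named were all members, flanking loci with at least 100 reads in both libraries, the 6 imprinted genes and 3 potassium channel or silencing factor genes with most reads, all other cyclin-dependent kinase inhibitors and the 5 genes nearest in allelic ratio. The aged file and its label give different weeks, and the label was used. Alternatives changed the allelic ratio correction, the read minimum, the cutoffs, the interval, the scaling, the window and the treatment of overlapping loci.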

Additional observations from a re-analysis of the deposited data

How the results depend on the processing

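Of 83 alternative values, 65 were labelled as the same, 15 moved and 3 changed direction. Ratios were judged by the interval of the main value, and counts of genes by a factor of 1.5. Some alternatives could hardly differ. The deposited allelic ratio is the same counts rounded, scaling per kb leaves an aged to adult ratio unchanged, and the narrower window kept the fixed list of flanking loci. The number labelled as the same is therefore no measure of robustness. Dividing the odds by those of the autosomal BL6 share moved the adult allelic ratio of Kcnq1ot1 to 0.357 and that of Kcnq1 outside Kcnq1ot1 to 0.537, still on the same sides of 0.5. Scaling by the median gene-wise ratio gave aged to adult ratios of 0.508 for Kcnq1ot1, 0.337 for Kcnq1 outside Kcnq1ot1 and 0.999 for Nap1l4, which turned to the other side of 1. With Kcnq1 as deposited in place of the subtraction, its allelic ratio was 0.487 in the adult heart and 0.377 in the aged library, on the other side of 0.5, because the reads of Kcnq1ot1 are then included. Past an allelic ratio of 0.7 or 0.3 were 0 genes of the domain in the adult library at a minimum of 50 and 0 at 100 reads, since Cdkn1c has fewer, while cutoffs of 0.6 and 0.4 gave 2 in the adult heart and 2 in the aged library. Of the flanking loci, 0 were past the cutoffs in either library at a minimum of 100 reads. With a minimum of 20 reads, 0 of the 5 genes nearest to Kcnq1ot1 in allelic ratio stayed on the list, because more genes entered it. No paired analysis was possible because each age has 1 library and the labels carry no replicate number. Depth limits Cdkn1c and Slc22a18 most.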

Other observations

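Factors that act with Kcnq1ot1 or maintain its imprint were mostly a little higher in the aged library, as the average gene was. Of 14 named, 13 had at least 20 reads in both libraries, with a median aged to adult ratio of 1.39. All genes had a median of 1.16 and quartiles of 0.8655 and 1.561. The ratio was above 1 for 11 of 13. Most genes lie on that side given that median, but their share was not counted, so this count is a description. Those with most reads were Ehmt1, an H3K9 methyltransferase gene, at 412.8 RPM in the adult heart and 488.8 RPM in the aged library (ratio 1.18, 1.13 to 1.24), Dnmt3a, a de novo DNA methyltransferase gene (1.54, 1.42 to 1.66), and Suz12, a Polycomb gene (1.31, 1.21 to 1.43). Ezh2, the catalytic Polycomb subunit and named after its values were seen, was the only one at 1/1.5 or lower, with a ratio of 0.637 (0.553 to 0.731), and 4 of the 13 were at 1.5 or higher, as 28.0% of all genes were. The allelic ratio intervals were separate between the ages for 5 of the 13, of which 4 were higher at 78 weeks, while 11.8% of autosomal genes had separate intervals and 6.37% were higher.

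Of 6 other cyclin-dependent kinase inhibitor genes, 2 had at least 20 reads in both libraries. Cdkn1a had 35 adult and 51 aged reads, a ratio of 2.45 (1.56 to 3.88), and Cdkn1b 71 and 45 reads, a ratio of 1.06 (0.716 to 1.57). Both had overlapping allelic ratio intervals. Cdkn2a had 2 and 7 reads, Cdkn2b 8 and 13, Cdkn2c 7 and 3, and Cdkn2d 5 and 12.

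In the neighbouring imprinted domain, H19, a maternally expressed noncoding RNA named after its values were seen, had 6 BL6 against 0 CAST reads in the adult heart and 39 BL6 against 0 CAST reads in the aged library, or 0.616 and 6.72 RPM (ratio 10.9, 4.59 to 31.5). Igf2, its paternally expressed partner gene, had 0 BL6 reads at both ages, with 2 CAST reads in the adult heart and 4 in the aged library.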
